A study of Mus musculus with 4 samples.

Results

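Inflammatory myeloid spots were examined in both Visium sections of the burn/tenotomy (BT) injury site. They were chosen by a rule: within each section, among spots with at least 200 unique molecular identifiers (UMIs, counted transcripts), the 5% with the highest share of UMIs in S100a8, S100a9, Il1b, Cd14, Cxcl3 and Acod1. The rule took 156 of 3119 such spots in section A1 and 154 of 3088 in section B1, so 310 of the 6750 spots over tissue. Both sections were labelled as tendon of wild-type C57BL/6 mice, 10 weeks old and male per the series' design text, taken 7 days after BT, in which a burn of the back is combined with transection of the Achilles tendon to induce heterotopic ossification (HO). A Visium spot is a small region that can hold several cells, so a spot is not a cell, and a high level in a spot cannot be told apart as more cells of a type or more RNA per cell. The labels leave unsaid if the sections are of different mice, so every p-value measures the spread between these 2 sections, which may be technical. The single-cell libraries of the series, from Hif1a fl/fl mice, were not used here.

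The 6 genes belong to the acute inflammatory program of myeloid cells. S100a8 and S100a9 encode the subunits of calprotectin, which neutrophils hold in their cytosol in large amounts, and Il1b encodes the cytokine IL-1β, made as a precursor and cut after inflammasome assembly. Cd14 encodes the co-receptor that passes bacterial lipopolysaccharide to Toll-like receptor 4, Cxcl3 encodes a chemokine that attracts neutrophils through CXCR2, and Acod1 encodes the enzyme that makes itaconate in activated myeloid cells. In healing wounds neutrophils arrive first, gather under the scab and in the wound bed, and give way to macrophages, and many of these genes are switched on by NF-κB in either cell.

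NF-κB dimers bind short sequences near gene starts, so the region before the start of each gene was searched on both strands for the letters GGANTTTCC, where N is any base, which cover part of the known NF-κB motif. Promoter windows of 250 bases before to 50 after the start, from RefSeq on GRCm38.p6, were matched by symbol. The letters stood in the window of 12 of the 258 matched genes that passed the test as higher in the inflammatory spots against the remaining spots (4.65%), in 170 of the 11314 matched genes tested (1.503%), and in 412 of all 32851 windows (1.25%). Of the 94 genes that passed as lower, 66 matched and 1 held the letters (1.52%). These shares are a description, with no test, and a match is not a shown binding site. Of the 6 rule genes 5 matched and 2, Cxcl3 and Acod1, held the letters. The stretches around the match are shown for these 2 and for 3 of the genes described further on, Nlrp3, Ier3 and Tnfaip3, 5′ to 3′ on the strand of the gene, with the matched letters in capitals. They lie at chr5:90785989-90786077 (plus strand) for Cxcl3, chr14:103046887-103046975 (plus) for Acod1, chr11:59541407-59541495 (plus) for Nlrp3, chr17:35821534-35821622 (plus) for Ier3 and chr10:19015411-19015474 (minus) for Tnfaip3.
Cxcl3: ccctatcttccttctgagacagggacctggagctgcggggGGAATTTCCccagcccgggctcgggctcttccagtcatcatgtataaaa
Acod1: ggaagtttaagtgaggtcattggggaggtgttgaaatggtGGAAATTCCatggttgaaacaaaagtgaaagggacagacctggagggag
Nlrp3: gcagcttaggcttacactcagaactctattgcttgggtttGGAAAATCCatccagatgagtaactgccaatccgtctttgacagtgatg
Ier3: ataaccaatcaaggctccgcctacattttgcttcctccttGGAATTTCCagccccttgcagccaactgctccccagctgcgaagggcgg
Tnfaip3: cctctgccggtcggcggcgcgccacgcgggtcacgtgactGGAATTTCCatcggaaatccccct
The match began 72 bases before the gene start in Cxcl3, 85 in Acod1, 122 in Nlrp3, 139 in Ier3 and 24 in Tnfaip3. In Acod1 and Nlrp3 the letters were on the opposite strand, so they read as the reverse complement.

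Where the members lay differed between the sections. In B1, 134 of the 154 members formed 3 patches of 54, 47 and 33 touching spots, where a patch was defined as at least 10 touching members. In A1 a single patch held 38 of the 156 members, and the other 118 members were scattered over the section, 77 of the 156 members touching no other member against 13 of 154 in B1. The A1 patch reached the edge of the capture area, at array column 0. Epidermal spots were the 5% of spots richest in 6 keratinocyte genes. The median distance to the nearest one was 2.5 steps between neighbouring spots in the A1 patch, against 3 for scattered members and 4 for remaining spots. In B1 it was 4, 3 and 3 steps in the patches, 4 for scattered members and 8 for remaining spots. Patch members that were themselves epidermal spots numbered 6 of 38 in A1 and 0 of 134 in B1. The distance to the nearest wound mesenchyme spot, chosen in the same way by 6 matrix genes (Postn, Tnc, Col3a1, Col5a2, Thbs2 and Cthrc1), was 6 steps in the A1 patch and 7, 3 and 3 in the B1 patches, and 2 and 3 in the remaining spots of A1 and B1.

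**Figure D1:**
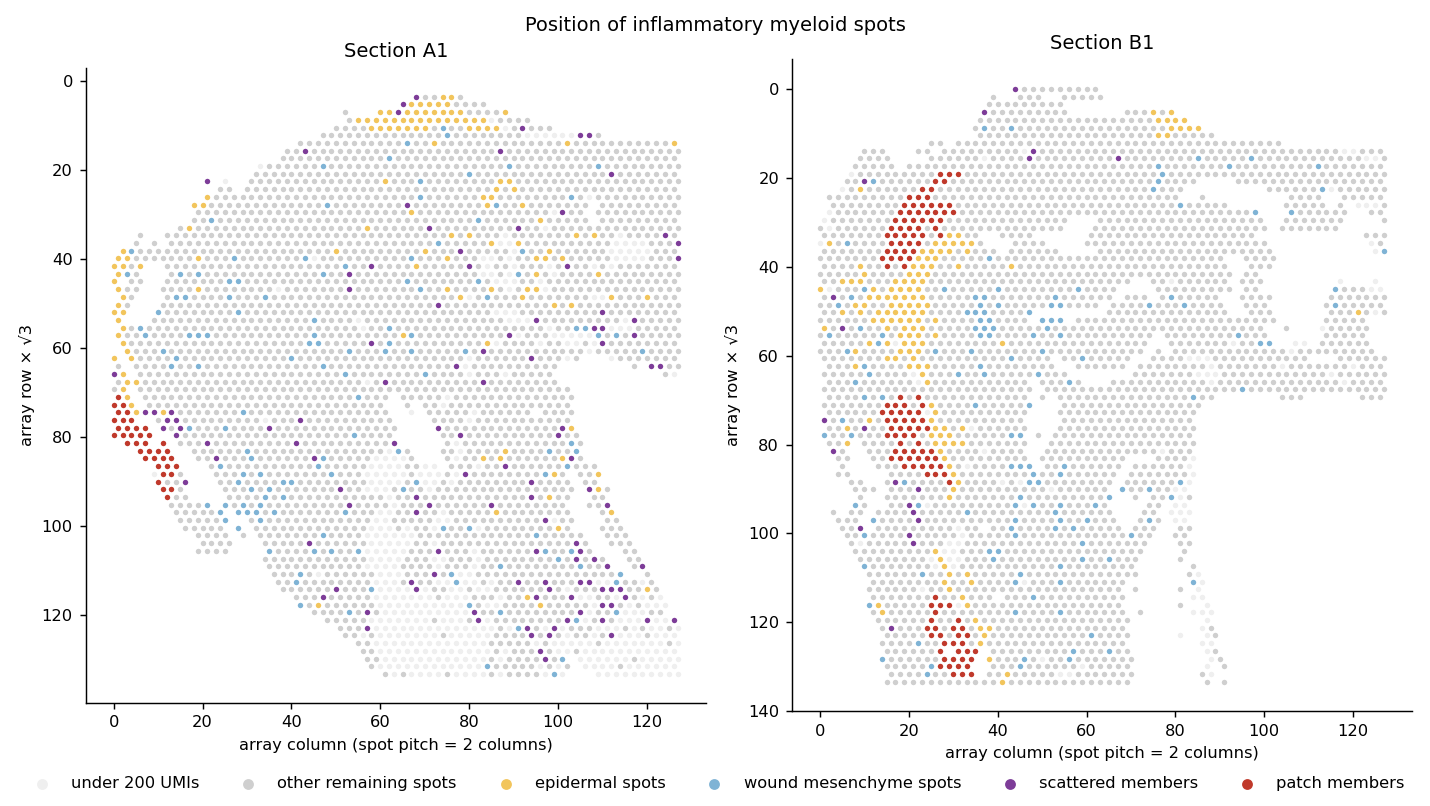
Position of the members in sections A1 and B1, drawn to scale by array column and row, with patch members in red, scattered members in purple, epidermal spots in yellow and wound mesenchyme spots in blue. The 38 patch members of A1 lie at the left margin of the tissue, and the 134 of B1 form 3 groups along the band of epidermal spots.

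The scattered members of A1 rested on few counts. The limit of the rule fell at a share of 0.386% in A1, and there the last spot inside held 2 rule UMIs of 518 and the first spot outside 1 of 259, the same share, so the order of tied spots decided. In B1 it fell at 1.19% inside, with 6 of 504 UMIs, and just below outside, with 6 of 505. Of the A1 members 40 had exactly 1 rule UMI and 59 had 2, whereas every B1 member had at least 3. A scattered member of A1 held a median of 306.5 UMIs and 2 rule UMIs, a patch member of A1 533.5 and 8, and a patch member of B1 810 and 19.5, beside 535 and 524 UMIs in the remaining spots of A1 and B1. In the patches the rule genes took 2.99% of UMIs in A1 (2.80 to 3.20, a 95% Wilson interval) and 3.12% in B1 (3.03 to 3.22), and in the scattered members of A1 0.594% (0.526 to 0.669). All intervals cover counting error only. The patches held 40.8% of all rule UMIs of the counted spots in A1 and 57.8% in B1. Because of this difference, counts of called genes are given for all members and, as an alternative chosen after seeing the data, for the patch members.

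The levels of the rule genes chose the members and are therefore described with no test. S100a9 was at 4002 CPM (UMI counts scaled to the same total) in members and 132 in remaining spots of A1, and at 10872 and 467 in B1. Il1b, at 5121 against 122 in A1 and 8427 against 320 in B1, was the most counted rule gene in A1, and S100a9 in B1. S100a8, Cd14, Cxcl3 and Acod1 lay between 867 and 2309 in the A1 members and between 1815 and 3231 in the B1 members. Over the patch members alone the sections were closer: Il1b was at 11221 in A1 and 8663 in B1, S100a8 at 4324 and 3354, and Cd14 at 2870 and 3079. In remaining spots a rule gene was seen in 1.18% (Cxcl3) to 8.74% (S100a9) of spots in A1 and in 5.76% (Acod1) to 24.7% (S100a9) in B1. Moran's I, the score of spatial clustering that Space Ranger deposits per gene, ranked Il1b 12th of 19132 genes in A1 (0.227) and S100a9 8th of 19222 in B1 (0.381).

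**Figure D2:**
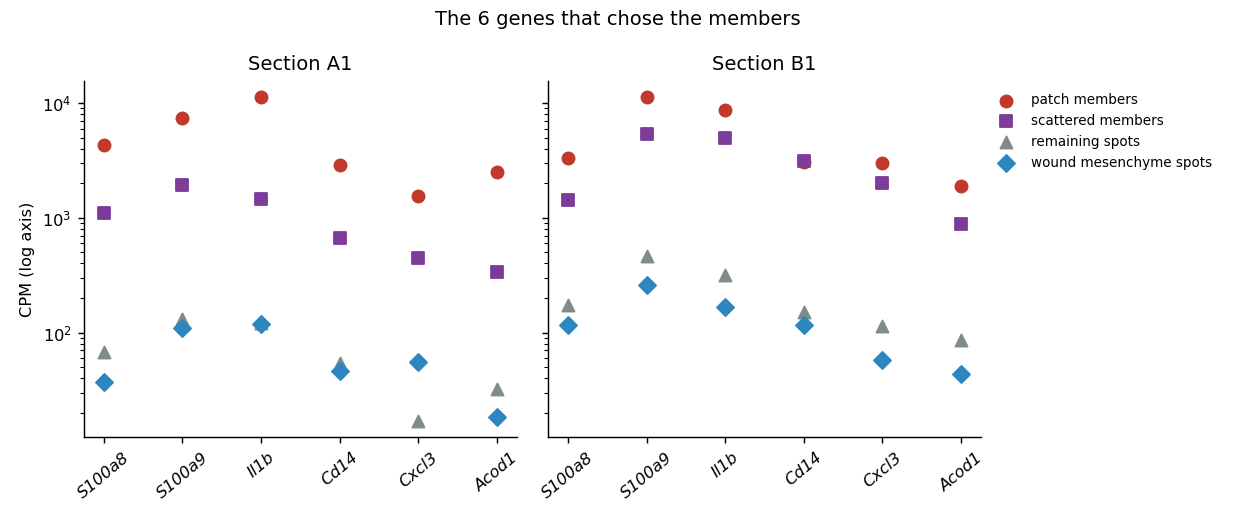
Level of each rule gene, in CPM on a log axis, in patch members, scattered members, remaining spots and wound mesenchyme spots of each section. Members are high because the rule chose them, and in A1 the scattered members lie between the patch members and the remaining spots for every gene, as at Il1b with 11221, 1456 and 122.

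The genes outside the rule were compared between the members and the remaining spots, from UMIs summed per section and set, leaving the 6 rule genes out of the sums. A gene made by the same cells as the rule genes is high in spots chosen by them, so the comparison shows which other transcripts lay in these spots. Of 14531 genes tested, 325 (2.24%) were higher and 94 (0.647%) lower in the inflammatory spots (edgeR quasi-likelihood test, blocked by section, Benjamini-Hochberg adjusted p under 0.05). The patch members alone gave 248 higher (1.77% of 14018) and 347 lower (2.48%), and 230 of the 325 higher genes and 45 of the 94 lower genes passed there too. The scattered members alone gave 0 calls among 12401 genes with edgeR, with 22 higher and 54 lower at an unadjusted p under 0.05, and DESeq2 was not run on them. That fit set 118 scattered spots of A1 beside 20 of B1, which held 8843 UMIs outside the rule genes. Higher genes ranged from 1.55 to 4.75 on the log2 scale, with a median of 2.66, and the median of all genes tested was -0.15. Unless another ratio, comparison or set of spots is named, values named "log2" further on are the fitted log2 ratio of the inflammatory spots over the remaining spots. Levels are CPM of the UMIs outside the rule genes. DESeq2, the alternative fit, gave an adjusted p to 4953 of the 14531 genes, so a gene that it did not call may have had none.

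The largest increase among the genes that passed was in the IL-1 system. Il1r2, which encodes the decoy receptor that binds IL-1 without signalling, was at 668 (95% Poisson interval 491 to 888) in the members and 19.8 (14.3 to 26.8) in the remaining spots of A1. Of its 47 UMIs in the A1 members 45 lay in the patch. In B1 it was at 1076 (909 to 1266) and 41.4 (33.3 to 51.0). In both sections the members were far above the remaining spots, with intervals that did not overlap, and the log2 was 4.75 ± 0.61 (SE) (adjusted p = 1.77e-11 in edgeR). Il1rn, the secreted receptor antagonist, was the most abundant gene of the group, at 1974 against 187 in A1 and 5330 against 430 in B1 (log2 3.39 ± 0.93, adjusted p = 0.015 in edgeR). Il1a, the sister cytokine of Il1b, had a log2 of 3.17, Il1rap, the shared co-receptor chain, 3.16, and Nlrp3, the sensor of the inflammasome, 3.64. These were the 5 of 18 tested members of the IL-1 list that passed as higher, and 0 passed as lower, with 2 lower at an unadjusted p under 0.05 and 0 lower in DESeq2. The list's median was 0.81. The same 5 genes passed in the patches and in DESeq2.

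Cytokines and chemokines other than those of the rule were raised in part. Csf3, which encodes G-CSF, the growth factor of neutrophils, was counted with 6 UMIs in the A1 members and 2 in all remaining A1 spots, and with 52 and 51 in B1. Its log2 was 4.45 ± 0.58 (adjusted p = 3.43e-11 in edgeR). Tnf rose unevenly, from 13.7 to 56.8 in A1 with 4 UMIs in the members, and from 39.1 to 796 in B1 with 108, for a log2 of 3.54. Osm, a cytokine of the IL-6 family made by neutrophils and macrophages, had 3.53, and Bmp2, an inducer of bone formation, 2.78 with 1 UMI in the A1 members and 17 in B1. With Tgfb1 (2.06), 5 of 14 tested genes of this list were higher and 0 lower, and 0 were lower at an unadjusted p under 0.05 or in DESeq2. The same 5 genes passed in the patches, and DESeq2 called all but Bmp2 and Tgfb1. Il6 did not pass, with 2 and 5 UMIs in the members and a log2 of 0.45 (adjusted p = 0.86 in edgeR).

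Among chemokines, Ccl4 and Ccl3, which attract monocytes and other leukocytes, were highest. Ccl4 was at 384 in the members against 11.8 in A1 and at 1762 against 98.6 in B1, a log2 of 4.41 (adjusted p = 8.14e-09 in edgeR). Ccl3 had a log2 of 3.996 and Ccl6 of 3.53, and the receptors Cxcr4 (3.51), Ccrl2 (2.99) and Ccr1 (2.76) passed as well, so 6 of 19 tested genes were higher. One, Cxcl14, a chemokine of resting epithelium and fibroblasts, was lower at -1.93. The patches added Cxcl12, made by stromal cells, as lower (-2.77), and DESeq2 did not call Ccr1 or Cxcl14. Of the genes for neutrophil-attracting chemokines and their receptors outside the rule, 1 of 4 passed: Cxcr2, the receptor for Cxcl3, at 142 against 6.13 in A1 and 192 against 15.4 in B1 (log2 3.88, adjusted p = 2.10e-09 in edgeR). Cxcl1 (0.92) and Cxcl5 (-0.86), ligands of the same receptor, did not pass. Of the 7 genes of this list 6 had a probe. Cxcl2, also on the list, had none, so its level could not be measured.

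**Figure D3:**
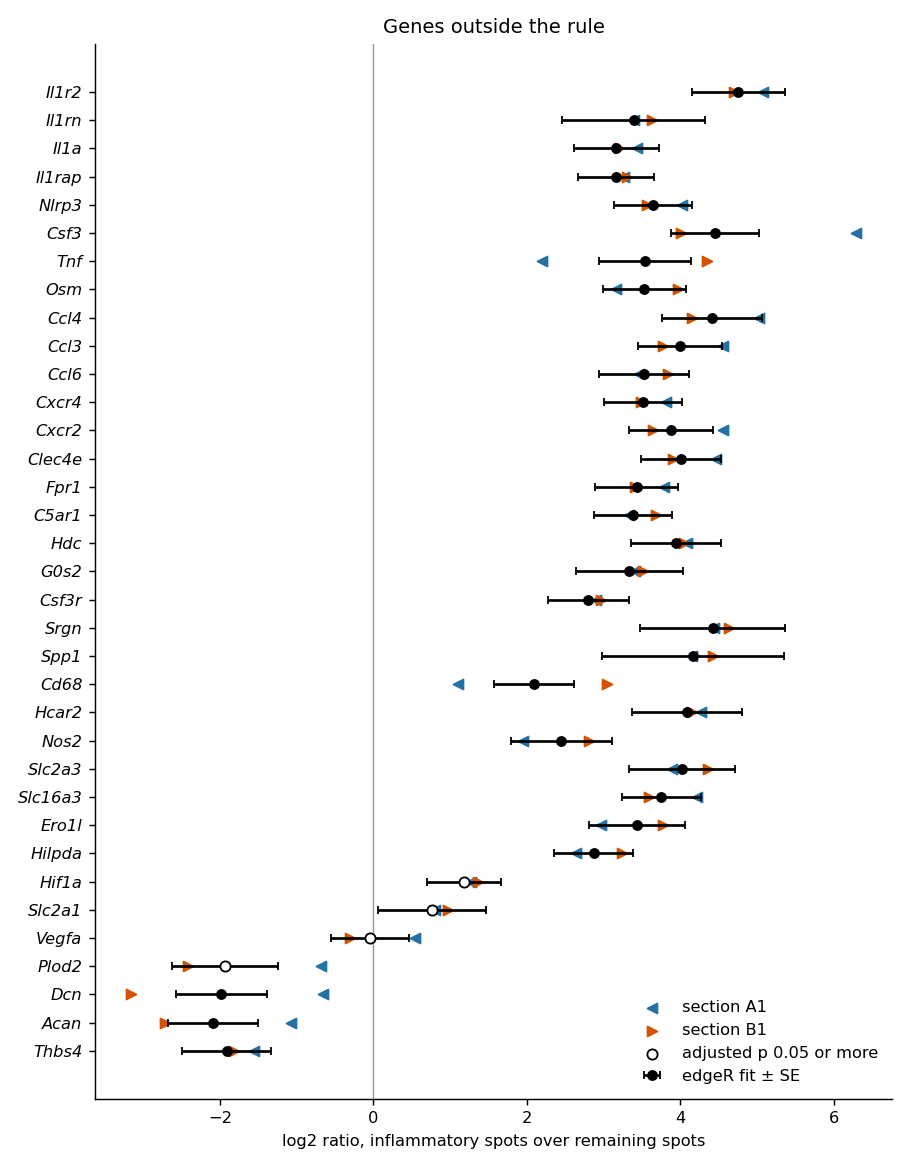
Fitted log2 ratio of inflammatory over remaining spots with its SE (black, open where the adjusted p is 0.05 or more) and the ratio in each section (blue A1, orange B1). Il1r2 is highest at 4.75, section A1 lies apart from B1 for Csf3, Tnf, Cd68 and Dcn, and Hif1a, Slc2a1, Vegfa and Plod2 are open.

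Over all members, surface receptors of activated myeloid cells were the list with the largest share of called genes. Of 21 tested genes, 13 were higher and 0 lower, with 0 lower at an unadjusted p under 0.05 and 0 in DESeq2, and the median was 2.62. In the patches 11 of 21 were higher, beside 11 of 20 mature neutrophil genes. Clec4e, the lectin receptor Mincle that binds mycobacterial and damaged-cell glycolipids, was at 185 against 8.48 in A1 and 354 against 23.7 in B1 (log2 4.01, adjusted p = 2.55e-11 in edgeR). Cd300lf (3.53), the formyl peptide receptor Fpr1 (3.43) and the complement receptor C5ar1 (3.39) followed. The signalling adaptors Fcer1g and Tyrobp, carried by neutrophils, macrophages and NK cells alike, had 3.27 and 3.11. Of the Toll-like receptors, Tlr2 (2.47) and Tlr6 (2.81, with 0 UMIs in the A1 members) passed in edgeR and not in DESeq2, and Tlr2 did not pass in the patches. Tlr1 (1.05), Tlr4 (1.48) and Tlr8 (2.09) did not pass, and Tlr7 and Tlr13 had too few counts to be tested.

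Of 20 tested genes of mature neutrophils 10 were higher, 10 did not pass and 0 were lower, with 0 lower at an unadjusted p under 0.05 and 0 in DESeq2. Their summed level was 8139 in the members and 2248 in the remaining spots of A1, and 18164 and 2776 in B1. In A1 the patch stood at 17677 and the scattered members at 2546. Hdc, the enzyme that makes histamine, had a log2 of 3.94 (adjusted p = 1.02e-08 in edgeR), the glycoprotein Lrg1 3.51 and G0s2, an inhibitor of fat breakdown, 3.33. Csf3r, the G-CSF receptor that marks the neutrophil lineage, was at 540 against 73.1 in A1 and 715 against 91.7 in B1 (log2 2.80, adjusted p = 2.12e-05 in edgeR). Slpi, a secreted inhibitor of neutrophil elastase, had the highest level of the list, at 3494 against 953 in A1 and 9288 against 1276 in B1. A large part of the summed levels of the list is thus Slpi alone. It did not pass over all members (2.25, adjusted p = 0.35 in edgeR) and passed in the patches (2.503, adjusted p = 6.08e-04) and in DESeq2 (adjusted p = 0.011). Mmp9 and Ly6g were among those that did not pass, Mmp9 at 597 against 460 in A1 and 818 against 371 in B1 (log2 0.65) and Ly6g with 1 and 8 UMIs in the members (log2 2.17, adjusted p = 0.17). Of 13 marrow granule genes with a probe, 6 could be tested and 0 passed in either direction, with 0 at an unadjusted p under 0.05 and 0 of 1 in DESeq2. Mpo and Elane had at most 1 UMI in the members of a section.

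Of 14 tested macrophage genes 1 was higher and 0 lower, with 4 lower at an unadjusted p under 0.05 and 0 in DESeq2, and the median was -0.94. Their summed level was 2273 in the members and 2858 in the remaining spots of A1, and 1519 and 2251 in B1. The gene that passed was Cd68, a lysosomal protein of phagocytes, at 142 against 69.3 in A1 and 494 against 60.0 in B1 (log2 2.10, adjusted p = 0.0037 in edgeR), and it did not pass in DESeq2 (adjusted p = 0.13). In the patches Cd68 was higher, Apoe, a lipid carrier of macrophages and other cells, was lower (-1.95), and the median was -1.83. The complement gene C1qa was at 85.2 against 131 in A1 and 29.5 against 101 in B1, Csf1r at 99.4 against 179 and 81.1 against 121, and neither passed. Adgre1 and Lyz2 had at most 1 UMI in the members of a section, and no more than 8 and 16 UMIs in all remaining spots of a section, so they could not inform the comparison. The T and NK cell genes (5 tested) and the B and plasma cell genes (2 tested) gave 0 calls in edgeR, with 0 higher and 1 lower, a B cell gene, at an unadjusted p under 0.05 and no gene with an adjusted p in DESeq2, and 8 of 8 B cell genes had no UMI in the A1 members. The patches thus carried neutrophil genes and general myeloid genes, and the label of inflammatory myeloid spots was kept for the members. The A1 patch also carried epidermal genes, with Krt14 at 11528 against 7389 in the remaining spots. In B1 each patch had less Krt14 than the remaining spots. Which cells of a spot made a transcript was not tested. The 118 scattered members of A1 showed little myeloid signal outside the rule genes: their macrophage genes summed to 2907, beside 2858 in the remaining spots, and their mature neutrophil genes to 2546, beside 2248. The 20 scattered members of B1 differed. Their mature neutrophil genes summed to 6107, beside 2776, and Il1rn was at 4184 (2946 to 5767), beside 430. Their macrophage genes summed to 1470, beside 2251, and Il1r2, Csf3r, Cxcr2 and Nlrp3 had 0 UMIs in them.

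Spp1 was high in these spots, while most of its list did not pass. Spp1, which encodes osteopontin, a matrix phosphoprotein made by macrophages after injury and by bone cells, was at 1918 (1608 to 2270) in the members and 108 (94.9 to 123) in the remaining spots of A1. In B1 it was at 10268 (9736 to 10822) and 480 (451 to 510). Its log2 was 4.16 ± 1.19 with an adjusted p of 0.021 in edgeR and 1.29e-08 in DESeq2. Of 12 tested genes of lipid-handling and Spp1 macrophages 2 were higher, Spp1 and the lipid droplet protein Plin2 (2.11), and both passed in the patches, while DESeq2 did not call Plin2. Arg1 (0.66), Fabp5 (-1.08), Gpnmb (-0.90) and Trem2 (-0.51) did not pass. Srgn, the core protein of granule proteoglycans in blood cells, was similar in size to Spp1, at 1733 against 79.7 in A1 and 5190 against 208 in B1 (log2 4.42). Of the genes with the 10 largest increases that belong to no list, Nr4a3, a nuclear receptor induced by stimulation, had 4.57, Snx20, a sorting nexin of blood cells, 4.44, Fam107b 4.16, the lectin receptor Klra2 4.13 and the receptor Cd300ld 4.13.

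Genes of the NF-κB response and of the handling of oxidants were called in part. Of 18 tested NF-κB genes 5 were higher and 0 lower, with 9 higher at an unadjusted p under 0.05. They were Ier3 (3.25), Ptgs2, the inducible cyclooxygenase (3.19), the feedback inhibitor Tnfaip3 (2.61), the mRNA-decay factor Zfp36 (2.57) and Irak3 (2.42). Ier3 was among the more abundant, at 2088 against 232 in A1 and 6789 against 570 in B1, with an adjusted p of 0.047 in edgeR and 1.13e-05 in DESeq2. Nfkbia did not pass over all members (1.90, adjusted p = 0.17 in edgeR) and passed in the patches (1.99, adjusted p = 0.0097). DESeq2 did not call Tnfaip3 or Irak3. In the oxidant and iron list 5 of 13 were higher: Hcar2, a receptor for niacin and ketone bodies (4.09), the cystine transporter Slc7a11 (2.74), the nitric oxide synthase Nos2 (2.45), the metal transporter Slc11a1 (2.01) and Hmox1 (1.79). Nos2 and Hmox1 did not pass in the patches or in DESeq2, and Slc11a1 did not pass in DESeq2. Fth1, the ferritin heavy chain, was far more abundant than these, at 9616 against 1545 in A1 and 22682 against 2109 in B1, but passed in the patches (3.18, adjusted p = 1.26e-05 in edgeR) and not over all members (2.91, adjusted p = 0.43). In the interferon list 0 of 15 tested genes passed in edgeR, with 1 higher at an unadjusted p under 0.05 and 0 in DESeq2.

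The series is about hypoxia-inducible factor 1α (HIF-1α), so glucose handling and HIF-1 targets were examined. Of 22 tested genes of glucose entry and glycolysis 3 were higher and 0 lower: the glucose transporter Slc2a3 (4.02), the lactate exporter Slc16a3 (3.75) and Hk3 (2.72), the hexokinase of myeloid cells. The same 3 passed in the patches and in DESeq2, and at an unadjusted p under 0.05 the list had 6 higher genes and 1 lower. Slc2a3 was at 540 (382 to 741) against 36.8 (29.1 to 45.9) in A1 and at 2270 (2024 to 2539) against 111 (97.1 to 126) in B1, with an adjusted p of 1.49e-06 in edgeR. Slc2a1, the other main transporter, was at 1108 against 638 in A1 and 1747 against 891 in B1, and did not pass (0.76 ± 0.70, adjusted p = 0.65). Of 26 tested genes of the HIF pathway outside glycolysis 3 were higher and 0 lower, with a median of -0.01. They were Ero1l, an oxidase of disulfide bond formation (3.44), Hilpda, a lipid droplet protein induced by low oxygen (2.87), and Ankrd37 (2.14). All 3 passed in the patches, where the list's median was -0.38, and DESeq2 did not call Ankrd37. At an unadjusted p under 0.05 the list had 7 higher genes and 3 lower. Of those that did not pass after adjustment, Ddit4, an inhibitor of mTOR signalling, was at 85.2 against 82.5 in A1 and 494 against 87.9 in B1 (1.47), and the oxygen sensor Egln3 at 384 against 198 and 457 against 150 (1.17). Hif1a itself was at 156 against 67.4 in A1 and 221 against 87.0 in B1 (1.18 ± 0.49), higher in both sections, and did not pass (adjusted p = 0.19 in edgeR). Vegfa was higher in the members of A1, 284 against 199, and lower in those of B1, 184 against 231, and its fitted log2 was -0.04 (adjusted p = 0.99). Plod2, the collagen lysyl hydroxylase, was counted with 3 UMIs in the A1 members and 2 in the B1 members, a log2 of -1.94 ± 0.69 that did not pass (adjusted p = 0.11).

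Genes of the wound mesenchyme and collagen list were lower in the patches, and less so over all members. Their summed level was 7762 in the patch and 38891 in the remaining spots of A1, and 7247 and 35235 in B1, whereas the scattered members of A1 stood at 33709. Of 18 tested genes 1 passed as lower over all members, Dcn (-1.98, adjusted p = 0.032 in edgeR), a proteoglycan of collagen fibrils, and 12 passed as lower in the patches. Col1a1 was one of the latter, at -2.66 with an adjusted p of 2.40e-04 in the patches. Thbs4, a tendon matrix gene, and Acan, the cartilage proteoglycan, passed as lower over all members at -1.91 and -2.09. DESeq2 called none of Dcn, Thbs4 and Acan. In the patches 3 of 8 tendon and 3 of 7 cartilage genes passed as lower. Of 17 tested proteases and inhibitors 1 was higher, Plaur, the urokinase receptor (3.19), and in the patches 3 were lower. The summed level of that list was not lower in the B1 patches, at 5173 against 3842 in the remaining spots. The epidermis and injured epidermis lists had 0 calls over all members in edgeR, with 0 and 1 lower at an unadjusted p under 0.05 and 0 in DESeq2. The injured epidermis genes summed to 10610 in the members against 6754 in the remaining spots of A1, and to 4828 against 10854 in B1, opposite directions in the sections, as were the epidermis genes (13906 against 12749, and 4968 against 13878). The A1 patch too stood above the remaining spots, at 16562 for the injured epidermis and 15140 for the epidermis genes. The 10 genes with the largest decrease all had 0 UMIs in the members of both sections. With a floor of 3 UMIs over both sections they were at least 4.47-fold (Fbln5), 4.46-fold (Enkd1) and 4.20-fold (Vash1) lower, and the other 7 at least 2.72-fold to 3.44-fold. Over the 94 genes called lower the median was 5 UMIs in the members, and DESeq2 called 0 of them.

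In the lists not yet described, endothelium (10 tested), bone (7), cell division (9), adipose (5), osteoclast (7), platelet (4), erythroid (2), skeletal muscle (8) and MHC class II and dendritic genes (11) gave 0 calls in either direction in edgeR over all members and 0 in DESeq2. At an unadjusted p under 0.05, 1 skeletal muscle gene was higher, and endothelium and osteoclast had 3 lower genes each, bone 2, and skeletal muscle, cell division and MHC class II genes 1 each. The patches alone added 3 lower skeletal muscle genes and 1 lower gene each for the osteoclast, epidermis and MHC class II lists. The summed level of the endothelial genes was 154 in the A1 patch and 221 in the B1 patches against 652 and 564 in the remaining spots.

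The distance from the patches gave a further view. The mature neutrophil genes summed to 17677 (16098 to 19368) in the A1 patch and to 19004 (18253 to 19778) in the B1 patches. In the spots touching a patch they were at 2735 in A1, from 11 spots, and at 6050 in B1, from 120 spots. At 2 steps they were at 5519 (4010 to 7409) in A1, from 13 spots and above the level at 1 step, and at 4593 in B1. At 3 steps they were at 2934 and 2886, against 2277 and 2419 beyond 10 steps. Slpi, the most abundant gene of the list in the members, is part of these sums. Il1r2 fell in B1 from 1151 to 214 at 1 step and 52.6 at 2 steps, and Spp1 from 10291 to 2123 and 1158. In A1 Spp1 was at 4765 in the patch, 288 (34.9 to 1040) at 1 step and 1003 (433 to 1977) at 2 steps, and intervals this wide leave the order of both rings unsettled. The mesenchyme and collagen list ran the other way, from 7247 in the B1 patches through 11725 at 1 step and 22852 at 4 to 5 steps to 41381 beyond 10 steps, and in A1 from 7762 to 13963, 34602 and 39076. Between them lay the injured epidermis genes, which peaked at 25910 at 1 step in A1 and 40218 at 2 steps in B1, and which were at 16562 in the A1 patch and 4424 in the B1 patches. The macrophage genes were lowest in or next to the patches, at 1191 in the A1 patch and 1282 at 1 step in B1, and at 3988 and 2551 at 4 to 5 steps. The rule chose the spots at distance 0, and from 2 steps outward the rings also hold scattered members, which it chose too. The A1 level of the neutrophil genes at 2 steps is therefore not one of unchosen surroundings alone. These profiles are a description with no test.

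**Figure D4:**
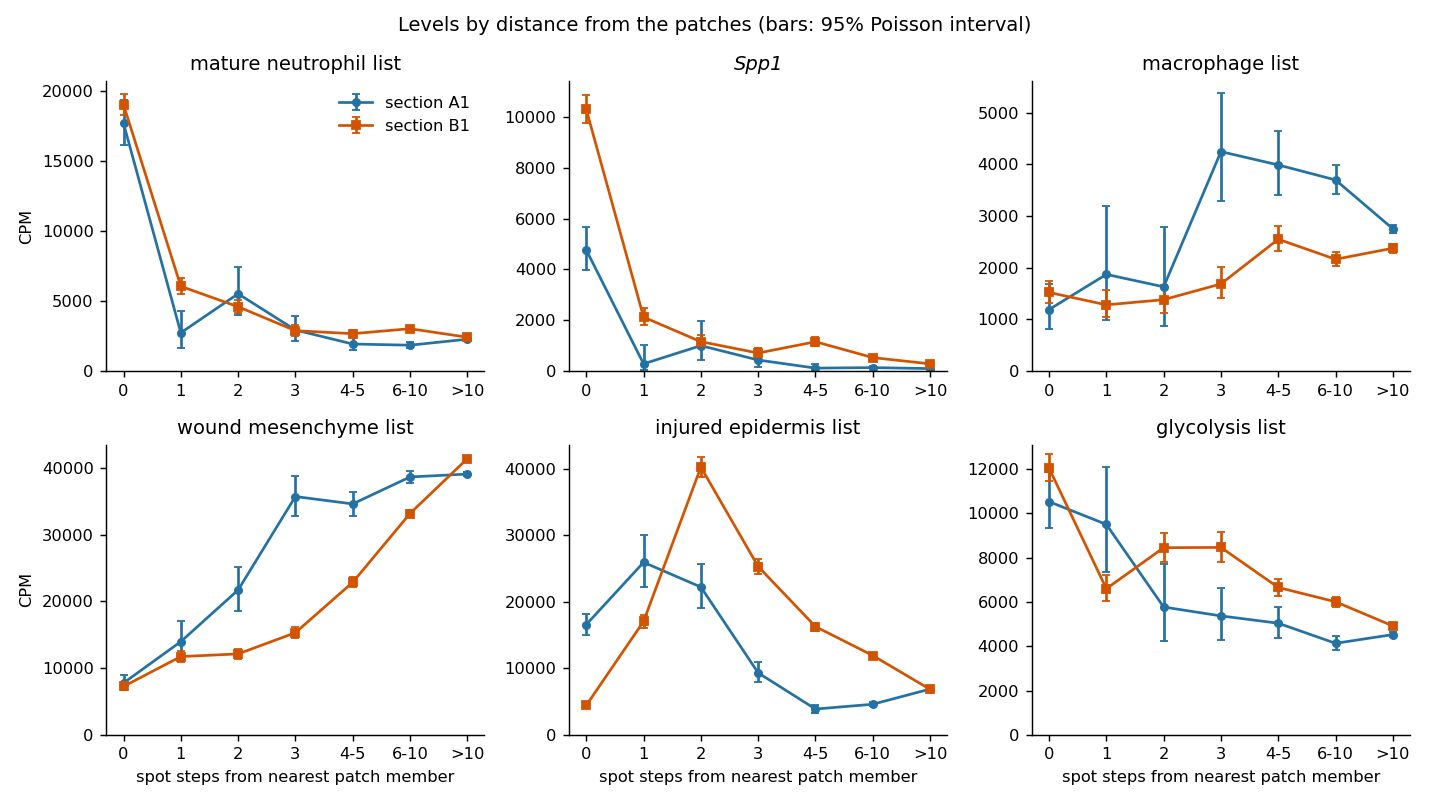
Summed CPM of gene lists, and of Spp1, by the number of spot steps to the nearest patch member in A1 (blue) and B1 (orange), with 95% Poisson intervals. Scattered members are included from 2 steps outward. Neutrophil genes and Spp1 are lower at 1 step than in the patches, neutrophil genes of A1 stand at 5519 at 2 steps, mesenchyme genes climb to 39076 and 41381 beyond 10 steps, and injured epidermis genes peak at 1 step (A1) or 2 steps (B1).

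The 4 patches had similar levels of some genes and unlike levels of others. Il1rn lay between 4584 and 6312, Ptgs2 between 2344 and 2970 and Hdc between 1052 and 1744 in all 4. Patch 3 of B1, the smallest, had less Slc2a3 than the other B1 patches, 548 (274 to 981) against 2732 (2326 to 3188) and 2719 (2272 to 3229) in patches 1 and 2. It also had less Hcar2, 1046 (648 to 1599) against 2851 and 3096. Its Acod1 level, 968 (591 to 1495), was below the 2303 of patch 1 and overlapped in its interval with the 1739 of patch 2. Its Il1r2 level, 548 (274 to 981), was below the 1464 (1141 to 1850) of patch 2 and the 1729 (1261 to 2314) of the A1 patch. Tnf was lowest in the A1 patch, at 154 (41.9 to 394), against 899, 607 and 1196 in patches 1 to 3 of B1. Ccl4 was at 884 (560 to 1326) in the A1 patch and 2002 (1657 to 2398) in patch 1 of B1. Cxcl3 was highest in patch 2, at 4591 (4013 to 5229) against 1694 (1383 to 2055) in patch 1 and 3146 in patch 3. Hilpda was at 255 (142 to 420) in patch 1 of B1 and 899 (651 to 1211) in patch 2. The A1 patch had the lowest Spp1, 4765 (3963 to 5681), against 9452 to 12007 in B1, and its Csf3r level, 1345 (937 to 1871), compared with 548 to 941 in B1. Each patch is one region of one section, so these intervals cover counting error only and no test between patches was made.

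**Figure D5:**
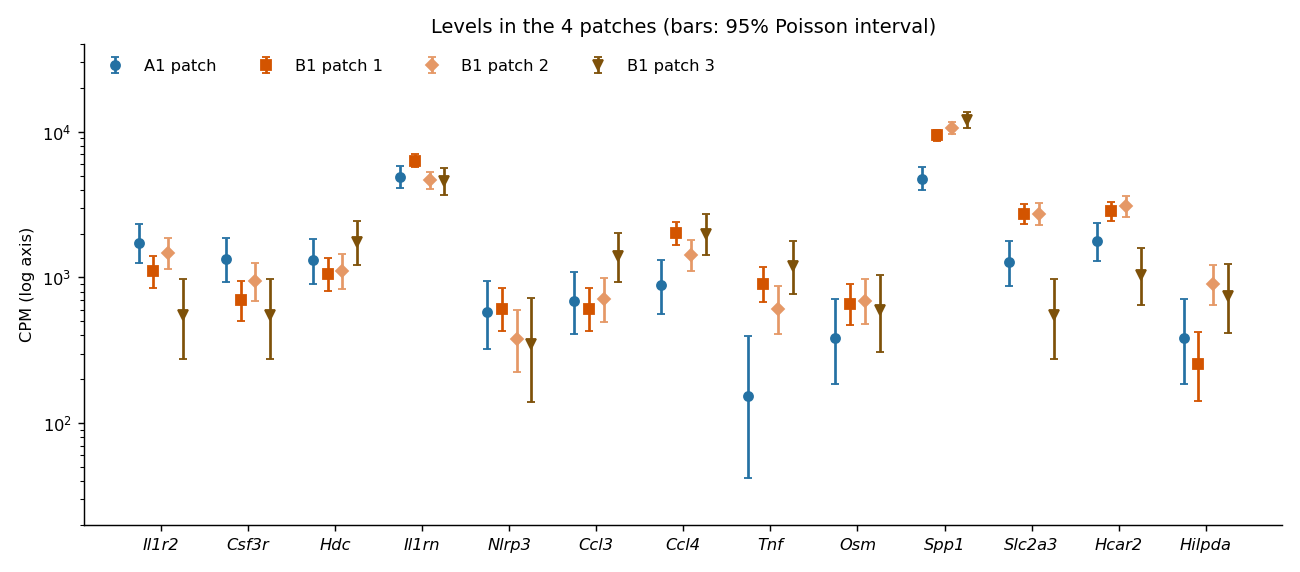
Level of 13 genes outside the rule in the A1 patch and the 3 B1 patches, in CPM on a log axis with 95% Poisson intervals. Slc2a3 and Hcar2 are lowest in patch 3 of B1, and Spp1 is lowest in the A1 patch at 4765.

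Members rich in S100a8 and S100a9 were set against those poor in them, as a description of variation among the members. The split used counts of the rule genes, which also chose the members. It therefore cannot decide whether the rule joined spots of different kinds. The groups were split at the median S100 share of the rule UMIs, 50% in A1 and 44.4% in B1, giving 55 and 101 members in A1 and 75 and 79 in B1. Of 990 genes tested 0 were higher (0% of genes) and 0 lower (0%) with edgeR, with 2 higher and 0 lower at an unadjusted p under 0.05 and 0 and 0 calls in DESeq2. The A1 groups were uneven, since 42 members had S100 UMIs only, 43 had none, and the rich group held 10 of the 38 patch members. In A1 Il1r2 was at 49.0 in the rich and 920 in the poor group, and Spp1 at 637 and 2440, and in B1 the ratio of the groups was 0.02 for Il1r2 and 0.15 for Spp1 on the log2 scale. In A1 the Il1r2 intervals of the groups did not overlap (1.24 to 273 and 674 to 1227), and there the split rested on a median of 2 rule UMIs per member in either group. The absence of calls does not show that the groups were alike.

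Against wound mesenchyme spots, Il1r2, Slc2a3 and Spp1 were among the 10 largest increases. After leaving out the 13 and 1 spots that both rules took, and all 12 genes of both rules, 2586 genes were tested, of which 368 were higher (14.2%) and 70 lower (2.71%) in the inflammatory spots. With patch members alone 510 (20.9% of 2438) were higher and 403 (16.5%) lower. The largest increases were in Emilin2, an extracellular glycoprotein (6.51), Samsn1, an adaptor of blood cells (6.39), Themis2 (6.28), Il1r2 (6.22), Rab20, a small GTPase (6.07), Slc2a3 (6.02), Treml4 (5.92), Spp1 (5.84), Pik3ap1 (5.81) and Slc15a3 (5.64). Emilin2 was counted with 40 UMIs in the A1 members and 118 in B1, against 0 and 3 in the mesenchyme spots. Apart from Slc2a3 (2 and 6 UMIs) and Spp1 (6 and 34), the others too had between 0 and 3 UMIs in the mesenchyme spots of a section, so their order and the size of their ratios rest on few counts. Spp1 was at 2011 against 56.1 in A1 and 10310 against 252 in B1 (adjusted p = 2.08e-06 in edgeR). Its log2 ratios within A1 and B1, 5.05 and 5.34, were below the fitted 5.84. The same held for Samsn1, Il1r2, Rab20, Slc2a3, Treml4 and Slc15a3, as in Slc2a3 with 4.63 and 5.57 below the fitted 6.02. For Emilin2, Themis2 and Pik3ap1 the fitted value lay between the sections. Fitted sizes in this comparison can thus exceed the ratio of either section.

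Of 13 mature neutrophil genes tested here 11 were higher, and of 11 glycolysis genes 5 were higher. Slc2a1 was at 1141 against 505 in A1 and 1728 against 674 in B1, a log2 of 1.78 that did not pass over all members (adjusted p = 0.069 in edgeR) and passed in the patches (2.00, adjusted p = 2.90e-04). Hif1a had 1.39 (adjusted p = 0.069) and Vegfa 1.29 (adjusted p = 0.084) over all members. In the patches Hif1a passed (1.59, adjusted p = 0.024 in edgeR) and Vegfa did not (0.95, adjusted p = 0.15). The log2 ratios within A1 and B1 over all members were 1.17 and 1.35 for Slc2a1 and 0.81 and 0.84 for Hif1a. For both genes the fitted value thus lay above the ratio of either section. For Vegfa (1.37 and 0.25) and Plod2 (-1.75 and -3.56) the fitted value lay between the sections. Plod2 was lower, with 2 UMIs in the members of each section against 13 and 29 in the mesenchyme spots (-2.46, adjusted p = 0.0078 in edgeR), and did not pass in DESeq2 (adjusted p = 0.39). The largest decreases were in Fbln5, an elastic fibre protein (0 and 0 against 10 and 14 UMIs), Bad (-3.04), Rnf144a (-2.88), Foxo1 (-2.85), Racgap1 (-2.71), the growth factor Ptn (-2.66), Csrp2 (-2.49), the microfibril gene Fbn2 (-2.49), Adamts10 (-2.47) and Acan (-2.47). Over all genes DESeq2 called 2 as lower in this comparison. It gave an adjusted p to 4 of the 10 genes named, Ptn (0.25), Csrp2 (0.28), Fbn2 (0.057) and Acan (0.072), and none of these passed.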

How the data were processed

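Both sections were prepared with the V1 Visium FFPE kit, in which probes for 19465 genes are hybridized to fixed tissue. The deposited matrices hold the authors' raw UMI counts of each gene in every spot over tissue, made with Space Ranger 2.0.1 on mm10, together with spot positions and a Moran's I score per gene, which was used as deposited. Sections held 2259744 (A1) and 2308754 (B1) UMIs, with a median of 454 and 516 per spot. The sections share 2528 spot barcodes, which mark array positions, and their gene counts differed beyond sampling noise (chi-square of 7.96 per gene over 17279 genes). The single-cell files were not used.

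UMIs were summed per section and set of spots. edgeR 4.0.16 in R 4.3.3 fitted the sums (TMM, filter on low counts, section as a block, quasi-likelihood) and p-values were adjusted over every gene tested (Benjamini-Hochberg). DESeq2 1.42.0 was the alternative. Scripts were tested on simulated data. Neighbours of a spot are the 6 spots around it. The members, the 31 gene lists and the tests were chosen with earlier results of these data known. Genes were named by a rule: per list up to 4 genes that passed and moved alike in A1 and B1, by size of change, the 10 largest each way, and Hif1a, Vegfa, Slc2a1, Plod2 and Spp1. One gene that the rule took is not reported here. Other list genes given with values were chosen after their values were seen. Of 426 list genes 415 had a probe, with Ero1a read as Ero1l, Il36a as Il1f6 and Il36g as Il1f9.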

Additional observations from a re-analysis of the deposited data

How the results depend on the processing

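Against the remaining spots, 325 genes were higher and 94 lower. The count of higher genes was 184 with DESeq2, 214 with no filter on low counts, 1 with S100-rich members only and 0 with scattered members only (22 at an unadjusted p under 0.05), and was within 1.5 times under the other alternatives. The count of lower genes was less stable: 0 with DESeq2 (234 at an unadjusted p under 0.05), 60 with no filter, 13 in spots of at least 500 UMIs, 160 with the top 2.5% and 18 with the top 10% of spots, 22 with remaining spots matched in UMIs, 183 with S100-poor and 1 with S100-rich members, 37 with S100a8 and S100a9 left out of the rule, 347 with patch members, 0 with scattered members (54 unadjusted) and 525 with members of at least 3 rule UMIs. The patch, scattered and 3-UMI alternatives were chosen after seeing the data. Between S100-rich and S100-poor members 1 gene was higher with the top 10%. Against wound mesenchyme spots, no filter gave 205 higher and 34 lower genes, and the lower genes numbered 2 with DESeq2, 18 with no replicate block, 23 in spots of at least 500 UMIs, 38 with the top 10% and 403 with patch members. The cause of these changes was not tested. The replicate block was the section, and without it 367 genes were higher and 77 lower than in the remaining spots, and 292 were higher than in mesenchyme spots.

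Scattered members alone turned the fitted direction of Il1r2 (-0.064), Fam107b (-0.73), Nlrp3 (-0.74), Osm (-0.87), Zfp36 (-0.18), Lrg1 (-1.47), Cd68 (-1.39), Plin2 (-0.17), Slc11a1 (-0.41), Hk3 (-0.77), Ankrd37 (-0.25) and Slc2a1 (-0.12) on the log2 scale, and of Vegfa (0.010). The median of all genes in that fit was -0.63. By CPM, Slc2a1 was higher in the scattered members of both sections, 744 against 638 in A1 and 2149 against 891 in B1. Il1r2 and Nlrp3 were higher by CPM in A1, from 2 and 1 UMIs in the scattered members, and had 0 UMIs in those of B1. A turned sign in this fit is therefore not a shown reversal of level. Vegfa also turned with DESeq2 (0.10), the top 2.5% (0.059), matched spots (0.56), members outside the epidermal spots (0.0013) and in A1 alone (0.55, without replicate 2, against -0.30 without replicate 1), and Slc2a1 with S100-rich members only (-0.077). Of the 61 named genes, 56 lost their call with S100-rich members only, 43 with scattered members, 15 in spots of at least 500 UMIs, 13 each with the top 2.5% and the top 10%, 11 with patch members and 10 with DESeq2, keeping their direction. The 10 for DESeq2 leave out named genes to which it gave no adjusted p. Since DESeq2 called 0 of the 94 lower genes, more named calls are absent there than these 10. Leaving out a section leaves 1 section and no test.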

Other observations

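Some named genes had unlike ratios in the sections. The ratio in A1 and B1 on the log2 scale was 6.29 and 4.01 for Csf3, 2.20 and 4.35 for Tnf, 1.29 and 3.44 for Bmp2, 1.10 and 3.05 for Cd68, and -0.65 and -3.15 for Dcn. In the A1 members Csf3 rested on 6 UMIs, Tnf on 4, Bmp2 on 1, Cd68 on 10 and Dcn on 9. Of the 61 named genes, the ratio in B1 alone was off the fitted value by more than the SD of the section ratios for 26, and the ratio in A1 alone for 32. No test between the sections was possible with 1 sum of each.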
